A study of Mus musculus with 12 samples.

Results

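Genes of red cell biology were followed across whole mouse retinas collected 2 days after optic nerve crush (ONC): the adult alpha globin genes Hba-a1 and Hba-a2, the adult beta globin genes Hbb-bs and Hbb-bt, and Alas2, the erythroid form of the enzyme that starts haem synthesis. They are the 5 of 25655 genes in the deposited tables that carry these symbols. They were chosen by the counts they have in these same libraries, so their levels and differences are given as a description. The fit across all genes is quoted for them only beside its background, and nothing is read from it. All mice were wild-type C57BL/6J aged 8 to 10 weeks by the sample labels, the left optic nerve was crushed, and a single intravitreal injection followed. The 4 groups of 3 samples received PBS as control, fluvastatin, matrix-bound nanovesicles (MBV), or fluvastatin with MBV. Fluvastatin is a statin, an inhibitor of HMG-CoA reductase, and MBV are vesicles recovered from extracellular matrix. The 3 PBS, 3 fluvastatin and 3 MBV libraries are described here, and the combined treatment was not analysed here because its counts carry no library or group name. Both sexes were used in the study, and nothing in the labels says whether a sample was 1 retina or several, so errors and p-values measure only the spread between these samples, which may be technical.

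Adult haemoglobin is built of a pair of alpha and a pair of beta globin chains, each holding a haem group. Globin RNA is made in great amounts by red cell precursors in the bone marrow, and young red cells carry the remainder into the blood. Mature red cells of a mouse hold no nucleus and make no new RNA. The retina has its own distant relatives of haemoglobin, such as neuroglobin and cytoglobin. Alas2 joins glycine and succinyl-CoA in the mitochondria of red cell precursors, whereas Alas1 serves that step in other cells.

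Each library held 21349516 to 30992040 gene counts, and the 4 globin genes together took 131 to 349 of them. At this depth 3 counts correspond to 0.0975 to 0.137 CPM (counts per million-count library, after TMM scaling), and reads carry no molecular identifiers, so counting intervals and limits cover counting error only. The labels also hold 2 sets of library numbers, PBS lying in one and fluvastatin and MBV in the other. Treatment and library set therefore cannot be told apart in either comparison with PBS, while MBV against fluvastatin lies within a set. Library MBV 3 stood apart in its monocyte genes, whose summed level was 124 CPM against 13.7 and 19.5 CPM in the other MBV libraries. It also held the highest MBV sums of retina markers (39525 against 30705 and 27272 CPM) and pericyte genes (591 against 468 and 421 CPM). Its pigment gene sum was the highest as well (169 against 79.8 and 109 CPM), while its platelet and lymphocyte sums were not. Values without this library are given where they matter. Markers of the retina itself were abundant in every library. Their summed level over 15 genes was 40161 to 43891 CPM with PBS, 35091 to 38268 CPM with fluvastatin and 27272 to 39525 CPM with MBV, so that every treated library lay below every PBS library. Of these 15 genes, 1 rose and 4 fell with fluvastatin and 4 fell with MBV by edgeR (adjusted p under 0.05). Of all genes tested, 9.36% rose and 10.2% fell with fluvastatin, and 14.1% fell with MBV. The part of the lower retinal sum in the globin values below was not tested.

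The adult globins were low in all retinas and higher after either single treatment than after PBS. Their summed level was 5.91, 5.36 and 4.98 CPM in the PBS libraries. It was 11.0, 13.05 and 14.3 CPM with fluvastatin and 10.4, 11.8 and 14.2 CPM with MBV. Every treated library lay above every PBS library, and the fluvastatin and MBV libraries overlapped. The means were 5.42 ± 0.472 CPM for PBS, 12.8 ± 1.66 CPM for fluvastatin and 12.1 ± 1.96 CPM for MBV (SD, n = 3 each). Compared to PBS, the summed level was 2.36-fold as high with fluvastatin and 2.23-fold as high with MBV, and MBV stood at 0.950 of fluvastatin. With each library left out in turn the folds were 2.22- to 2.52-fold for fluvastatin, 2.03- to 2.38-fold for MBV and 0.867- to 1.02-fold for MBV against fluvastatin. In a bulk sample, fewer cells of a type and less RNA per cell cannot be told apart.

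**Figure D1:**
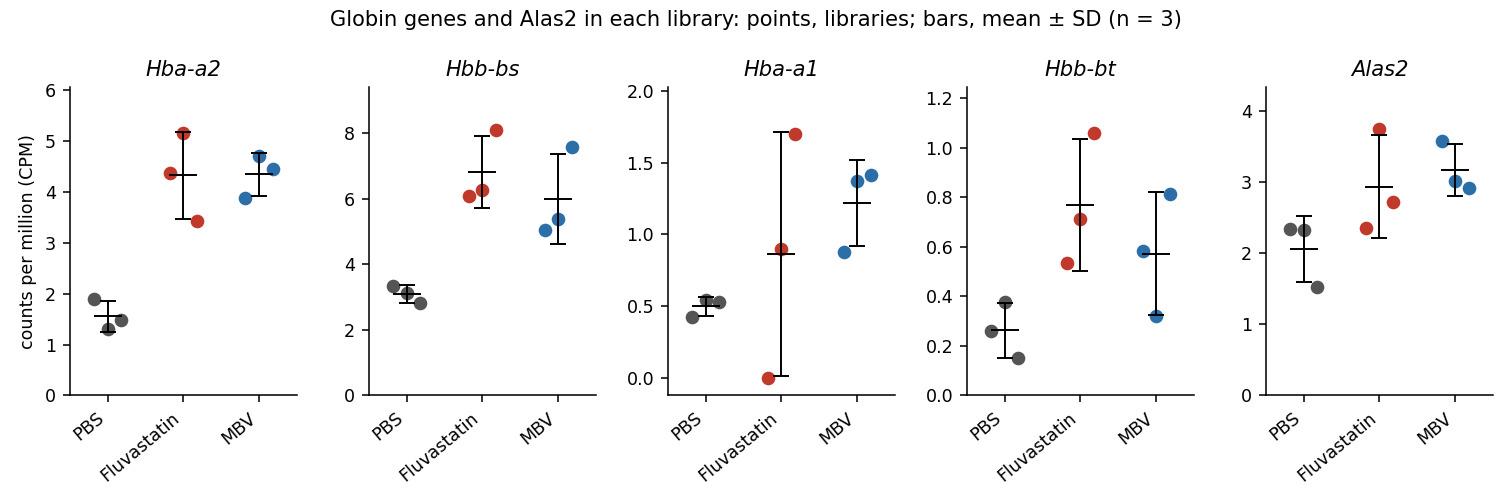
Level of each gene in CPM (vertical axis, a separate scale for each gene) in the PBS, fluvastatin and MBV groups. Points are libraries, bars the mean ± SD of 3. The treated libraries lie above the PBS libraries for Hba-a2 and Hbb-bs in both treatments, and 1 fluvastatin library is at 0 for Hba-a1.

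Hba-a2, which encodes the alpha chain on chromosome 11 (GRCm39, 32246489 to 32247298, plus strand), carried most alpha globin counts. PBS retinas gave 58, 38 and 39 counts of it, fluvastatin retinas 106, 138 and 81, and MBV retinas 106, 103 and 104. As levels these were 1.30 to 1.88 CPM with PBS, 3.43 to 5.16 CPM with fluvastatin and 3.87 to 4.70 CPM with MBV, so neither treatment overlapped PBS. The fitted log2 fold change of Hba-a2 was 1.47 ± 0.209 (SE) for fluvastatin and 1.46 ± 0.189 for MBV compared to PBS, and 0.00 ± 0.177 for MBV compared to fluvastatin.

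Hba-a1, the second gene for an alpha chain, lies upstream of it on the same strand (32233511 to 32234465). PBS retinas gave 13, 16 and 14 counts of it, fluvastatin retinas 0, 24 and 40, and MBV retinas 24, 30 and 33. The MBV libraries, at 0.877 to 1.41 CPM, lay above the PBS libraries at 0.422 to 0.546 CPM. The fluvastatin libraries spread from 0 to 1.70 CPM and enclosed the PBS values. Its log2 fold change was 0.78 ± 0.767 (SE) for fluvastatin and 1.26 ± 0.306 for MBV, and without library fluvastatin 3 the fluvastatin value fell to -0.11.

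The alpha genes are near-identical copies, so their counts are uncertain taken singly. Hba-a1 took 14.8% to 33.1% of alpha globin counts in 8 libraries, and 0 of 106 in library fluvastatin 1, which allows a share of up to 2.83% (3 counts of the total). The reads were 75 bases long, and in the first-named transcript models of GENCODE release vM39, 498 of 664 windows of 75 bases in Hba-a1 also occur in Hba-a2. Within the coding sequence the alpha genes differ at 1 of 426 bases, C381T with the Hba-a1 base first and positions counted from the A of the start codon, stop codon left out. Coding bases 351 to 426 of both genes show how little separates them, with the differing base in capitals.
Hba-a1: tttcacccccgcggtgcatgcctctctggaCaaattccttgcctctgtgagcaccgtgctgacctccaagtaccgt
Hba-a2: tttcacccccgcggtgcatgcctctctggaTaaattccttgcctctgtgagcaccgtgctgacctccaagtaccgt
The sum of both genes does not depend on this division, and it was 1.84 to 2.31 CPM with PBS, 4.37 to 6.06 CPM with fluvastatin and 4.75 to 6.07 CPM with MBV. The summed alpha level was 2.52-fold as high with fluvastatin and 2.69-fold as high with MBV as with PBS, without overlap. Library fluvastatin 1 held the lowest alpha sum of its group, and its Hba-a2 level lay between those of the other fluvastatin libraries.

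**Figure D2:**
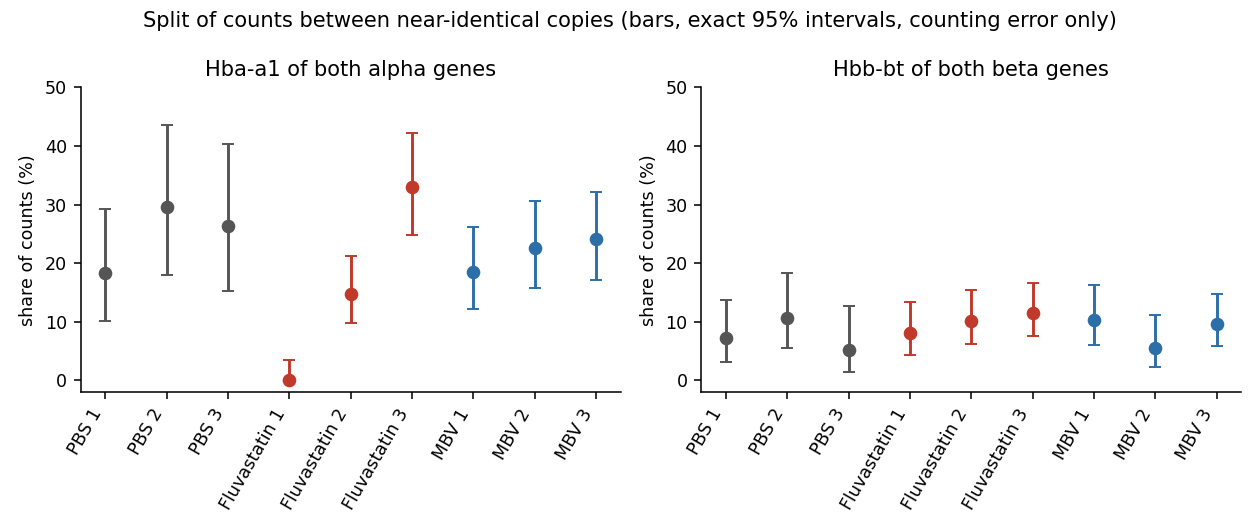
Share of alpha globin counts on Hba-a1 (left) and of beta globin counts on Hbb-bt (right), in percent, in each of 9 libraries. Bars are exact 95% binomial intervals, for counting error only. Library fluvastatin 1 is at 0 for Hba-a1, while the Hbb-bt share stays between 5.13% and 11.6%.

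Among the beta globin genes, Hbb-bs was the most highly counted member of all. It lies on the minus strand of chromosome 7 (GRCm39, 103475741 to 103477303) and had 103, 92 and 74 counts with PBS. The counts were 148, 168 and 191 with fluvastatin and 138, 118 and 177 with MBV. As levels, PBS libraries ranged from 2.81 to 3.35 CPM, fluvastatin libraries from 6.10 to 8.10 CPM and MBV libraries from 5.04 to 7.57 CPM, without overlap between PBS and either treatment. Library MBV 3 held the highest MBV value of Hbb-bs. The log2 fold change was 1.13 ± 0.150 (SE) for fluvastatin and 0.94 ± 0.179 for MBV compared to PBS, and -0.19 ± 0.182 for MBV compared to fluvastatin.

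Hbb-bt, the second beta globin gene of this cluster (103461731 to 103463203, minus strand), was near the limit of what the depth resolves. The counts were 8, 11 and 4 after PBS, 13, 19 and 25 after fluvastatin, and 16, 7 and 19 after MBV. The fluvastatin libraries, at 0.536 to 1.06 CPM, lay above PBS at 0.152 to 0.375 CPM. The MBV libraries, at 0.320 to 0.813 CPM, overlapped PBS. Its log2 fold change was 1.51 ± 0.432 (SE) for fluvastatin and 1.10 ± 0.484 for MBV.

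The division between the beta genes was steadier than that between the alpha genes, with Hbb-bt at 5.13% to 11.6% of beta counts and overlapping exact intervals in all 9 libraries. The same models of Hbb-bs and Hbb-bt share 356 of 590 windows of 75 bases, counted in Hbb-bs, and their coding sequences differ at 1 of 441 bases, C417T with the Hbb-bs base first. Coding bases 387 to 441 are shown for both, again with the differing base in capitals.
Hbb-bs: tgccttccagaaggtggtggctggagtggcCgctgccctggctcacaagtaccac
Hbb-bt: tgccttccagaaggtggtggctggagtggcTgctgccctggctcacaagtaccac
Of 367 coding windows of 75 bases, 342 occur in both genes. The summed beta level was 2.96 to 3.61 CPM with PBS, 6.63 to 9.16 CPM with fluvastatin and 5.63 to 8.38 CPM with MBV. It was 2.26-fold as high with fluvastatin and 1.94-fold as high with MBV as with PBS.

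Alas2, on the X chromosome (GRCm39, 149330371 to 149353634, plus strand), had the smallest differences from PBS of the 5 in both treatments. The counts were 72, 68 and 40 after PBS, 57, 100 and 64 after fluvastatin, and 98, 66 and 68 after MBV. Its level was 1.52 to 2.34 CPM with PBS, 2.35 to 3.74 CPM with fluvastatin and 2.91 to 3.58 CPM with MBV. The lowest fluvastatin library and the highest PBS library of Alas2 thus lay side by side, while the MBV libraries were apart from PBS. The log2 fold change was 0.51 ± 0.235 (SE) for fluvastatin, 0.61 ± 0.211 for MBV and 0.11 ± 0.207 for MBV compared to fluvastatin. Alas2 overlaps Apex2, a DNA repair gene of the other strand, and whether counting used strand is not given in the sources used here, so reads in the shared stretch cannot be told apart.

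Between genes, levels were compared per kilobase of that transcript model, on the scale of CPM per kilobase. With PBS, Hbb-bs stood at 4.67 ± 0.407, Hba-a2 at 2.40 ± 0.465, Alas2 at 1.01 ± 0.230, Hba-a1 at 0.678 ± 0.0915 and Hbb-bt at 0.373 ± 0.159 (SD, n = 3). Hbb-bs was above Hba-a2 and Hba-a2 above Alas2 in every PBS library, whereas Alas2 and Hba-a1 lay close in library PBS 3, at 0.746 and 0.721. Hbb-bs and Hba-a2 were also the 2 highest in both treated groups, at 10.3 ± 1.67 and 6.68 ± 1.33 with fluvastatin and 9.04 ± 2.06 and 6.71 ± 0.658 with MBV. The ratio of summed alpha to summed beta per length was 0.614 ± 0.0818 with PBS, 0.704 ± 0.163 with fluvastatin and 0.872 ± 0.183 with MBV. The MBV ratios, 0.700 to 1.06, lay just above the highest PBS ratio of 0.677, and the fluvastatin ratios of 0.555 to 0.878 overlapped both. The ratio of globins to Alas2 per length was 8.26 ± 1.55 with PBS, 13.7 ± 2.72 with fluvastatin and 11.9 ± 3.04 with MBV, where the MBV values of 8.87 to 14.9 overlapped the PBS values of 7.03 to 10.0.

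Spread within a group was close to what counting alone gives for some members and wider for others. For Hba-a2 with MBV the coefficient of variation was 9.80% against 9.79% from counting. For Hbb-bs with MBV it was 22.8% against 8.32%, and for Hba-a1 with fluvastatin 98.2% against 21.7%. Across the 9 libraries the alpha and beta sums had a Pearson r of 0.896 on log2 of the summed CPM, and 0.264 once group means were taken out. These correlations share libraries, groups and library sets and are given as a description.

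The fit across all genes (quasi-likelihood test of edgeR, p-values adjusted by Benjamini-Hochberg) placed 3 of the 5 members past an adjusted p of 0.05 for fluvastatin (Hba-a2, Hbb-bs and Hbb-bt) and 3 for MBV (Hba-a1, Hba-a2 and Hbb-bs), all higher than with PBS. In those comparisons 19.6% of 18818 and 26.1% of 18897 genes tested passed in either direction, and 9.36% and 12.0% passed as higher. Of MBV against fluvastatin, 0 of 5 members passed, where 0.0588% of 18721 genes did, 0 members had an unadjusted p under 0.05 and 0 passed with DESeq2. Of the 5 members, 4 lay wholly above PBS in each treatment (all but Hba-a1 for fluvastatin and all but Hbb-bt for MBV), against 17.3% and 20.3% of all genes tested. Because the members were picked for these differences, their counts are printed beside the background and nothing is read from them. Both comparisons share the PBS libraries. Without library MBV 3, 4 of 5 members passed for MBV, and over all alternatives 2 to 4 passed in each comparison with PBS.

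The stretch upstream of each start was examined because all members are known targets of erythroid transcription factors. GATA1 binds GATA sites, searched here as GATAA, and KLF1 binds the CACCC box. The CCAAT box and the TATA box, searched as TATAA, are general promoter elements. The 210 bases before the RefSeq start, on build GRCm38.p6, are shown for 4 members with any of these 4 motifs, on either strand, in capitals. The windows are chr11:32296282-32296491 (plus strand), chr7:103827929-103828138 and chr7:103813924-103814133 (minus strand) and chrX:150547207-150547416 (plus strand).
Hba-a2: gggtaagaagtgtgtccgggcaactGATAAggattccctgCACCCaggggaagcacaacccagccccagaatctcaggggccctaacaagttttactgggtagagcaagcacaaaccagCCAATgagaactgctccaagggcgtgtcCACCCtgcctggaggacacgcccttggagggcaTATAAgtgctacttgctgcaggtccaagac
Hbb-bs: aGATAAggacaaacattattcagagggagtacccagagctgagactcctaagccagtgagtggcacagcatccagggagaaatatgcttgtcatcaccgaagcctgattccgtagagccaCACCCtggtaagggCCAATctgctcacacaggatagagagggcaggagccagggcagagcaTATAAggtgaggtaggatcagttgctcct
Hbb-bt: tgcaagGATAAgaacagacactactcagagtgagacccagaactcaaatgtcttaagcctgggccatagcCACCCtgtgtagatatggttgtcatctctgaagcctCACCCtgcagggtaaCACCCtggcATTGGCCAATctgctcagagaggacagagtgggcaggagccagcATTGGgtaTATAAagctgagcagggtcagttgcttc
Alas2: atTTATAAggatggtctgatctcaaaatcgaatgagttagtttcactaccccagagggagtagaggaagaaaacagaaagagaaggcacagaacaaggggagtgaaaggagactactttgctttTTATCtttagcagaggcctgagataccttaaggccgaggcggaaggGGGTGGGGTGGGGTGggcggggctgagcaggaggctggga
Hba-a1 is left out because 297 of 297 RefSeq bases are those of Hba-a2 once shifted by 3, and GENCODE models of some members start further upstream than RefSeq. In the 250 bases before the start, all 4 globin genes held each of the 4 motifs, as did 318 of 32851 promoters (0.968%). Alas2 held all of them but CCAAT, and its TATAA matches lay 208 to 203 bases before the start. By themselves the motifs are common, GATAA being found in 22.6% of promoters, CACCC in 52.0%, CCAAT in 33.8% and TATAA in 22.8%. In each globin gene TATAA began 27 to 30 bases before the start and CCAAT on the strand shown began 75 to 91 bases before it. In Alas2 the GATAA match was on the other strand, 86 to 82 bases before the start. A match of letters is no evidence of binding in these retinas.

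Genes that define a red cell precursor were low in all groups, and some were at 0. Slc4a1, the anion exchanger of the red cell membrane, had 1 to 10 counts per library. The transcription factors Gata1 and Klf1 had 0 to 2 and 2 to 13 counts, and Hemgn had 0 to 2. Rhag and Kel, which encode blood group proteins, had 0 in every library, which allows up to 0.137 CPM each in the shallowest library. The embryonic and minor haemoglobin chains Hba-x, Hbq1a, Hbq1b, Hbb-bh1, Hbb-bh2 and Hbb-y had 3 counts or fewer in every library. Over 7 defining markers chosen after their values were seen (Slc4a1, Rhag, Kel, Epb42, Hemgn, Gata1 and Klf1) the summed level was 1.67 to 2.01 CPM with PBS, 1.48 to 1.78 CPM with fluvastatin and 1.37 to 1.63 CPM with MBV. These sums rest on 30 to 62 counts per library, of which Epb42, a protein of the red cell membrane skeleton, gave 15 to 40. With PBS the counts of Epb42, at 37, 40 and 30, were above those of Hba-a1 and Hbb-bt in every library. No level per length was computed for Epb42, so these counts do not rank the genes by level. The marker sums with fluvastatin overlapped PBS and those with MBV lay below PBS, whereas the globin sum was higher than PBS in both treatments. The gap between MBV and PBS was narrow, with 1.63 CPM from 38 counts in MBV 3 against 1.67 CPM from 44 counts in PBS 3, and was not tested.

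**Figure D3:**
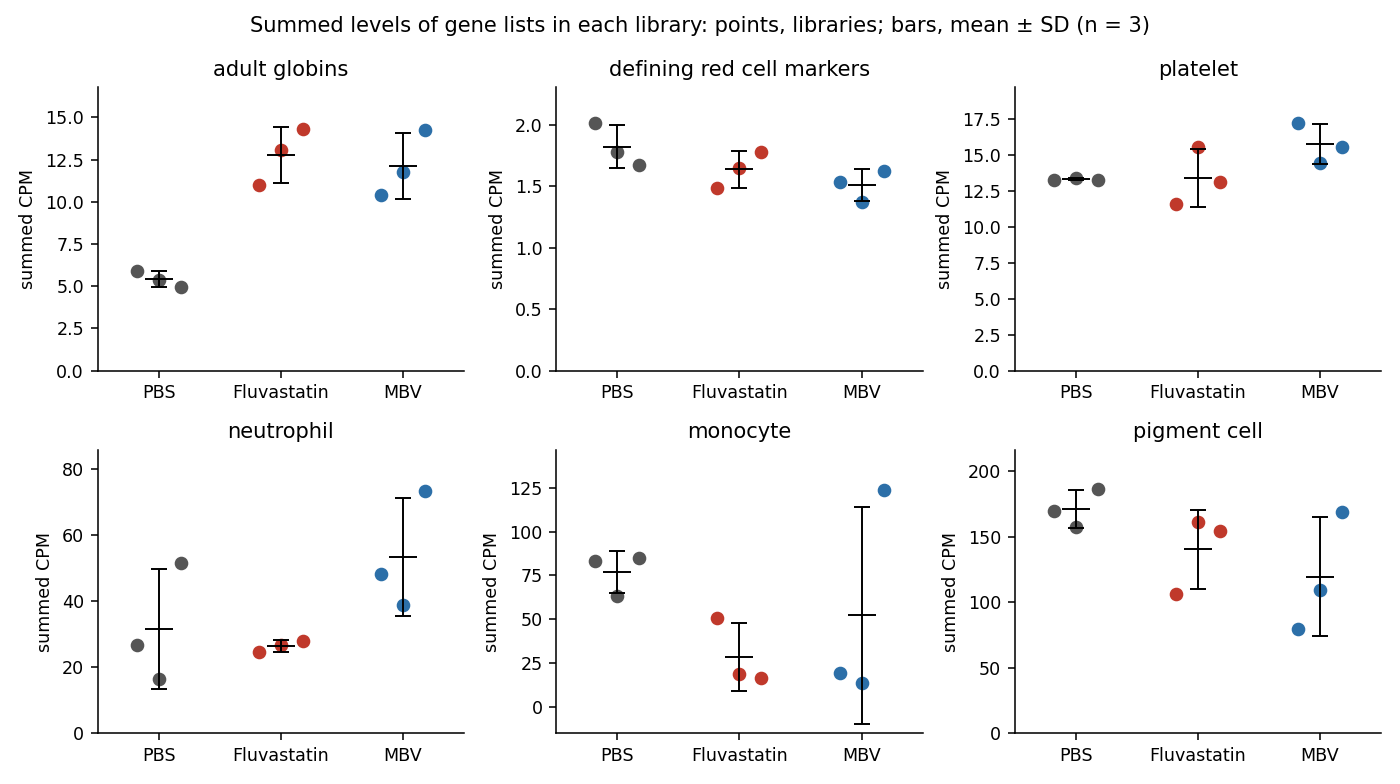
Summed level in CPM (vertical axis, from 0 except for the monocyte panel, with a separate scale for each list) of the adult globins and of 5 marker lists in each library. Points are libraries, bars the mean ± SD of 3. The adult globins lie above PBS in both treatments, the 7 defining red cell markers (Slc4a1, Rhag, Kel, Epb42, Hemgn, Gata1 and Klf1) in neither, and library MBV 3 is high for monocyte genes.

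Other genes of red cell biology moved in both directions. Of 51 in the tables, in 4 lists (membrane and skeleton, enzymes and chaperones, haem synthesis and iron supply, transcription factors and receptor), 49 could be tested. With fluvastatin 4 rose and 6 fell, where 9.36% of all genes rose and 10.2% fell, and with MBV 5 rose and 7 fell, where 12.0% rose and 14.1% fell. Their median log2 fold change was -0.01 for fluvastatin and 0.00 for MBV, where the median of all genes was -0.01 and 0.01. Compared to fluvastatin, 0 of the 49 passed with MBV by edgeR or DESeq2, while 6 had an unadjusted p under 0.05. Without library PBS 1 or without library fluvastatin 2, 3 of them rose and 3 fell with fluvastatin. Many of the listed genes are also used by retinal cells.

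Of the membrane and skeleton genes, 4 of 13 tested rose with fluvastatin, and 3 rose and 1 fell with MBV. The shares over all genes tested were 9.36% higher with fluvastatin, and 12.0% higher and 14.1% lower with MBV. Ermap, an erythroblast membrane protein of the immunoglobulin family, gave 8, 9 and 6 counts after PBS, 21, 26 and 24 after fluvastatin, and 18, 14 and 14 after MBV, without overlap of PBS and either treatment. Its log2 fold change was 1.82 ± 0.324 for fluvastatin (edgeR, adjusted p = 0.00436) and 1.23 ± 0.350 for MBV (adjusted p = 0.0306), the latter call being lost in 7 of 12 alternatives, DESeq2 and the replicate block among them. Dmtn, which bundles actin beneath the membrane, rose by 0.48 and 0.36 on the log2 scale, and Ank1, the ankyrin that ties the membrane to spectrin, by 0.48 and 0.42. Both are abundant here, at 40.1 and 96.9 CPM with PBS and both are known from neurons too. Sptb, erythroid beta spectrin, rose by 0.19 with fluvastatin and overlaps Plekhg3 of the other strand. That call was lost in 4 of 12 alternatives, which left out library PBS 1, PBS 2, fluvastatin 2 or fluvastatin 3. Aqp1, a water channel of red cells, fell by 0.48 with MBV.

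Of 14 other genes of haem synthesis and iron supply, 2 fell with fluvastatin, and 1 rose and 3 fell with MBV. Over all genes tested, 10.2% fell with fluvastatin, and 12.0% rose and 14.1% fell with MBV. Tfrc, the transferrin receptor through which dividing and iron-hungry cells import iron, had 5313 to 6189 counts with PBS, 2694 to 3131 with fluvastatin and 2247 to 3159 with MBV. On the log2 scale it fell by 0.75 with fluvastatin (edgeR, adjusted p = 9.2e-05) and by 0.87 with MBV (adjusted p = 0.00029). Alad, the second enzyme of haem synthesis, fell by 0.35 with fluvastatin (edgeR, adjusted p = 0.0456), a call lost in 5 of 12 alternatives (DESeq2, and without any 1 PBS library or library fluvastatin 2). With MBV, Abcb10, a mitochondrial transporter, and Flvcr1, a haem exporter, fell by 0.28 and 0.27, and Steap3, an iron reductase, rose by 0.49.

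Enzymes and chaperones of red cells that passed were all lower, 4 of 14 with fluvastatin and 3 of 14 with MBV. Among all genes tested, 10.2% fell with fluvastatin, and 12.0% rose and 14.1% fell with MBV. Car2, a carbonic anhydrase that the retina's glia also use, fell by 0.25 and 0.37 on the log2 scale, and Ucp2, a mitochondrial carrier that overlaps Dnajb13 of the other strand, by 0.85 and 0.80. Bnip3l, which clears mitochondria from maturing red cells, fell by 0.24 and 0.31, the fluvastatin call being lost in 3 of 12 alternatives. Cd24a, a surface protein of many young cells, fell by 0.42 with fluvastatin. Of 8 erythroid transcription factors and receptor genes, only Zfpm1, the GATA1 cofactor, passed, with a rise of 0.32 in MBV against PBS, and it overlaps Galnt2l of the same strand.

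**Figure D4:**
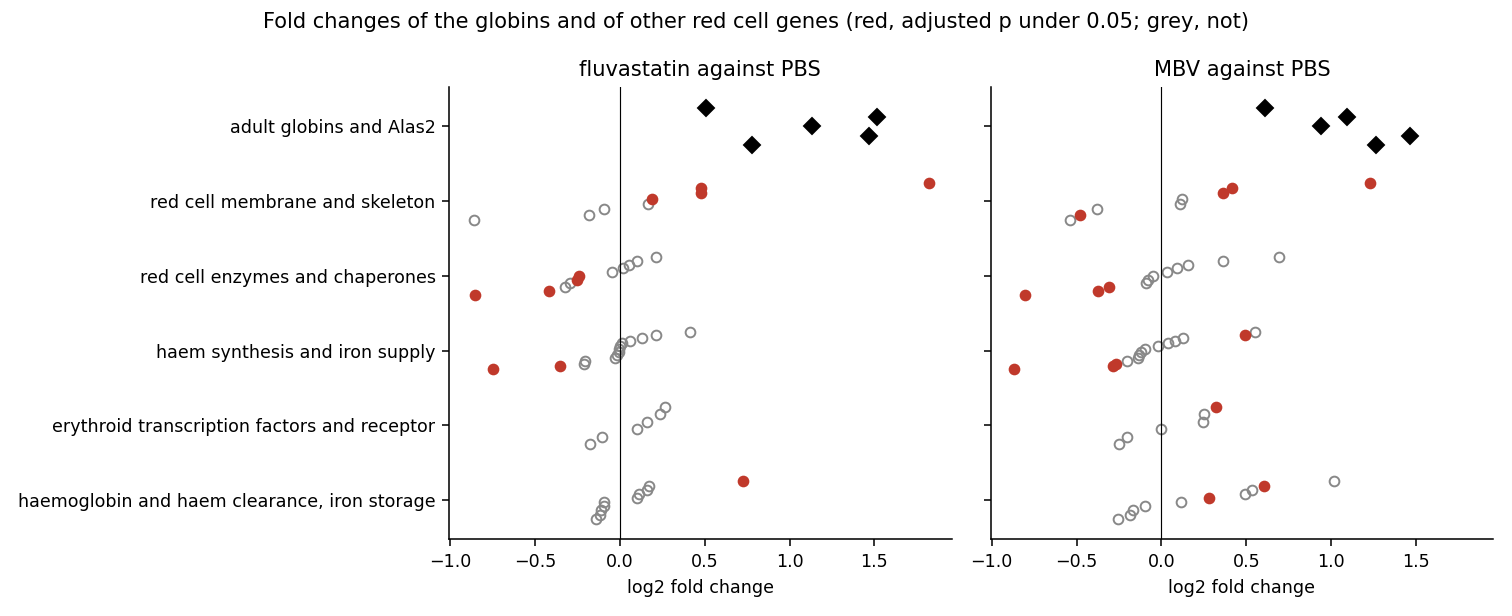
Fitted log2 fold change (horizontal axis) of fluvastatin (left) and MBV (right) compared to PBS, for the adult globins and Alas2 (black diamonds) and for genes of 5 lists with more than 10 counts in at least 1 library (circles, filled red at an adjusted p under 0.05). Heights within a row only spread the points. All 5 diamonds lie above 0, while the other lists spread on both sides.

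Of 12 genes that clear free haemoglobin and haem or store iron, 1 rose with fluvastatin and 2 rose with MBV. Of all genes tested, 9.36% and 12.0% rose. Trf, transferrin, rose from 109 ± 23.7 CPM with PBS to 181 ± 42.2 CPM with fluvastatin (log2 0.73 ± 0.171, edgeR adjusted p = 0.0145) and 167 ± 14.6 CPM with MBV (0.60 ± 0.132, adjusted p = 0.0101). Its fluvastatin call was lost in 3 of 12 alternatives. Lrp1, a receptor for haem bound to haemopexin among many other ligands, rose by 0.28 with MBV. Hmox1, the inducible haem oxygenase, gave 170, 189 and 224 counts after PBS, 153, 184 and 132 after fluvastatin and 307, 212 and 185 after MBV, and did not pass. Hp and Hpx, the plasma scavengers of haemoglobin and haem, had 3 to 16 and 9 to 17 counts. Among globins of other cells, Cygb rose by 0.30 and 0.29 on the log2 scale from 84.3 ± 5.48 CPM with PBS, the fluvastatin call being lost in 4 of 12 alternatives (without library PBS 1, PBS 2, fluvastatin 2 or fluvastatin 3). Ngb had 22 to 35 counts and Mb 8 to 21, without a call. Cygb overlaps Prcd, a photoreceptor gene of the other strand.

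Genes of other blood cells were called in both directions. Of all genes tested, 9.36% rose and 10.2% fell with fluvastatin, and 12.0% rose and 14.1% fell with MBV. Of the platelet list, Pf4, platelet factor 4, gave 15, 8 and 8 counts after PBS, 0, 0 and 0 after fluvastatin and 1, 0 and 3 after MBV, lower in both (edgeR, adjusted p = 0.00655 and 0.0310). DESeq2 called neither, and 7 of 11 alternatives lost the MBV call. The summed platelet list, 4 of whose 13 genes had 3 counts or fewer throughout, was 13.3 to 13.4 CPM with PBS, 11.6 to 15.6 CPM with fluvastatin and 14.5 to 17.2 CPM with MBV. Gp1bb was called higher with MBV but overlaps Septin5 of the same strand, and 8 of 12 alternatives lost that call. In the neutrophil list 1 gene rose and 2 fell with fluvastatin, and 1 rose and 1 fell with MBV, out of 11 tested. Its summed level was 16.3 to 51.6 CPM with PBS, 24.7 to 28.1 CPM with fluvastatin and 38.9 to 73.4 CPM with MBV, and Ly6g and Mmp8 had 3 counts or fewer throughout. The monocyte list summed to 16.2 to 51.0 CPM with fluvastatin against 63.4 to 84.7 CPM with PBS, and Lyz2 and Vcan fell, of 10 tested. With MBV only Vcan fell, while the median log2 fold change of the list was 1.24. Every gene of the list had its highest MBV count in library MBV 3. The summed level was 124 CPM there, against 19.5 and 13.7 CPM in libraries MBV 1 and MBV 2. Lyz2 gave 166, 70 and 1307 counts with MBV, against 194, 185 and 397 with PBS. Vcan held 63.1 ± 9.53 CPM of the list's sum with PBS, and in each comparison its call was lost in 7 of 12 alternatives, DESeq2 and leaving out any 1 PBS library among them. Lymphocyte genes summed to 0.812 to 1.23 CPM with PBS, 0.806 to 1.31 CPM with fluvastatin and 1.37 to 1.55 CPM with MBV. The MBV libraries thus lay above all others, on sums of only 19 to 39 counts per library. Of the 11 genes, 7 had 3 counts or fewer throughout, and 0 were called by edgeR.

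Lists for the vessel wall and for the pigment layer behind the retina were examined too. Of all genes tested, 19.6% were called with fluvastatin and 26.1% with MBV, in either direction, and no list was tested as a set. The endothelial list summed to 625 to 696 CPM with PBS, 555 to 603 CPM with fluvastatin and 580 to 674 CPM with MBV. With fluvastatin Slc2a1 and Flt1 fell, and with MBV Vwf and Cdh5 rose, of 15 tested. The pericyte list summed to 605 to 608 CPM with PBS, 556 to 606 CPM with fluvastatin and 421 to 591 CPM with MBV. With MBV 2 of its 9 genes rose and 1 fell, and with fluvastatin 0 were called. Of the 11 pigment genes, Pmel, Mlana, Tyrp1, Tyr and Dct, 5 in all, fell in each treatment. Pmel, which overlaps Cdk2 and Dgka of the other strand, fell by 2.01 and 2.44 on the log2 scale. With fluvastatin 3 rose (Ttr, Rgr and Rdh5), and with MBV 1 (Ttr). The Rdh5 call was lost in 6 of 12 alternatives and the MBV call of Ttr in 3. Rdh5 overlaps Bloc1s1 of the same strand. The summed level of all 11, which joins both directions, was 157 to 187 CPM with PBS, 106 to 161 CPM with fluvastatin and 79.8 to 169 CPM with MBV. The part of other cell types and of the library set in the globin difference was not tested.

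The genes whose level across the 9 libraries was most like the mean globin level were on none of the red cell lists. Among 13968 genes with a mean of at least 1 CPM, the highest Pearson r on log2(CPM + 0.5) were those of Tbc1d10b, Scn3b, Cpne6, Hddc3, D430019H16Rik, Krt18, Eno2, Arhgef10l, Cpne5 and Camkv, at 0.953 to 0.976. Eno2 is the neuronal enolase and Scn3b a sodium channel subunit. Tbc1d10b stood at 45.1 to 46.8 CPM with PBS, 50.6 to 54.4 CPM with fluvastatin and 51.0 to 55.3 CPM with MBV. In all 189 genes (1.35%) had r of at least 0.9, and Tfrc had r = -0.915. The points share groups and library sets, and the list rests on the measure, since the summed globin level in place of the mean log level, an alternative chosen after seeing the data, kept 1 of these 10 genes.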

How the data were processed

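Total RNA of whole retinas was made into libraries with a TruSeq total RNA kit and sequenced as paired reads of 75 bases. Whether globin RNA was depleted is not given in the sources used here. The authors aligned reads to GRCm39 in CLC Genomics Workbench and deposited tables of raw counts per gene, without normalization. Their columns of fold changes and p-values for each pair of groups were not used. In the table of the combined treatment, 6 count columns name no library or group and were used in no step. The 9 named libraries hold 21349516 to 30992040 counts.

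Genes without any count in a comparison were dropped. Pairs of groups were compared with edgeR 4.0.16 in R 4.3.3 (TMM scaling, quasi-likelihood test, Benjamini-Hochberg adjustment, no covariates). Levels are TMM-normalized CPM. The procedure was tested on simulated data. Sequences are from GENCODE vM39 and RefSeq. Python 3.11.15 was used for the rest. Alternatives were DESeq2 1.42.0, other scalings, a filter of more than 10 counts in 2 libraries, 1 fit of all 9 libraries, a replicate block and leaving out each library.

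The members and lists were chosen with earlier results of these data known. Named genes are the 5 members, up to 4 genes a list and comparison past an adjusted p of 0.05 by smallest p, defining genes near 0, and the 10 genes most like the mean globin level. Hmox1, Hp, Hpx, Ngb, Mb and the pigment genes other than Pmel were added after their values were seen. Results for some listed genes are not reported here.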

Additional observations from a re-analysis of the deposited data

How the results depend on the processing

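The direction of the summed globin level against PBS, and of every member except Hba-a1 for fluvastatin without library fluvastatin 3, held under all alternatives run. Its log2 fold ranged from 1.15 to 1.34 for fluvastatin and 1.02 to 1.25 for MBV with each library left out, and from -0.21 to 0.03 for MBV against fluvastatin, where its sign was not stable. For MBV against fluvastatin, the main count of 11 genes past the threshold became 5 with more than 10 counts in 2 libraries, 126 with DESeq2, 27 with 1 fit of all 9 libraries and 0 with the replicate block. Leaving out each library gave 1726 to 4402 genes for fluvastatin, 2711 to 5664 for MBV and 0 to 197 for MBV against fluvastatin, with library PBS 1 giving the lowest counts against PBS and library MBV 3 the highest for MBV against fluvastatin. Other red cell genes then numbered 6 to 15, 8 to 14 and 0 to 1. Calls of Cd24a and Lyz2 with fluvastatin, and of Ucp2, Zfpm1, Lrp1, Vwf and Cdh5 with MBV, were each lost in 2 of 12 alternatives. Those of Rgr and Ttr with fluvastatin, and of Flvcr1 and Steap3 with MBV, were each lost in 1. Of the 10 genes most like the globins, 0 remained by deviations from group means, 2 by Spearman rho and 1 by the summed globin level. The causes were not tested.

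Replicate numbers recur between groups, but same-numbered libraries did not deviate together (r of -0.429 to 0.190), so they share only a number. The replicate block left 2 members past the threshold for fluvastatin and 3 for MBV. A fit with the library set as a term could not be made, and the combined treatment and unique counts gave no values. Members under about 10 counts, such as Hbb-bt with PBS, are limited by depth.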
